A study of Mus musculus with 20 samples.

Results

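The mTORC1 kinase pathway was followed through 10 genes in injected quadriceps muscle: Mtor, Rptor, Deptor, Pdpk1, Rheb, Tsc1, Tsc2, Sesn1, Rps6kb1 and Eif4ebp1. They were chosen by name, and all 10 were found among the 55416 genes of the count table and were among the 14471 genes with enough counts to be tested. The muscles came from wild-type male C57BL/6J mice aged 26 to 28 months that had been fasted and were killed 3 h after 1 injection into the quadriceps. Control mice (n = 10) received 50 µL of saline, and secretome-treated mice (n = 10) received 50 µL of a stem cell secretome. This cell-free product is made from medium conditioned by partially differentiated human embryonic stem cells and holds secreted proteins and extracellular vesicles. The study's methods describe it as concentrated and then injected diluted in saline, and give no separate concentration for this experiment. Each library was made from ribosomal RNA-depleted total RNA of 1 muscle, so the values below are transcript levels, and protein levels and phosphorylation were not analysed here.

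mTORC1 is a protein kinase complex that couples growth factors, amino acids and cellular energy to protein synthesis, and it is a main regulator of muscle fibre size. Growth factor signals pass through PDPK1 and AKT to relieve the block that the TSC1-TSC2 complex places on the small GTPase RHEB, which switches the kinase on at the lysosome. The active complex, recruited to its substrates by RPTOR, phosphorylates S6 kinase and the translation repressor 4E-BP1, while DEPTOR and the sestrins hold it back. Most of this control acts on proteins and not on their transcripts.

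Between 13286983 and 22987237 reads per muscle were assigned to genes, and the 10 transcripts together held 0.0732% to 0.0903% of each library. The counts of a single member ranged from 270 for Rps6kb1 to 4196 for Deptor, so no member was near 0 in any muscle. The libraries differ by their number in the labels: libraries 1 to 5 are all control, libraries 6 to 15 hold 5 muscles of each treatment (control replicates 6 to 10 and secretome replicates 1 to 5), and libraries 16 to 20 are all secretome. The share of reads on Ttn, the titin gene, was 7.02% to 11% in the first range, 16.4% to 21.1% in the second and 14.2% to 14.7% in the third. Control replicate 2 had both the fewest assigned reads (13286983) and the lowest Ttn share (7.02%) of the 20 muscles. No batch is named for these library ranges in the labels or the study's methods. The treatments were therefore compared over all 20 muscles, within libraries 6 to 15, and between libraries 16 to 20 and 1 to 5, where treatment and library range cannot be told apart. Within libraries 6 to 15 treatment still follows library number, with control in 6 to 10 and secretome in 11 to 15. Levels are given as CPM, counts scaled to a common library size, and differences as the log2 fold change of secretome-treated over control muscle.

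Promoters are shown for Mtor, Tsc1 and Tsc2, the 3 members whose treatment difference differed between library ranges at an unadjusted p under 0.05. They come from RefSeq on mouse build GRCm38.p6 and run from 250 bases before to 50 bases after the annotated transcription start, 5′ to 3′ on the strand of the gene. The Mtor promoter lies at chr4:148448332-148448631 on the plus strand, the Tsc1 promoter at chr2:28640983-28641282 on the plus strand and the Tsc2 promoter at chr17:24632578-24632877 on the minus strand. Capitals mark every match, on either strand, to the CCAAT box, the GGGCGG motif of Sp1-type factors, the E-box CACGTG, the forkhead motif GTAAACA, the ETS motif CCGGAAG or the NRF1 motif GCATGCGC.
Mtor: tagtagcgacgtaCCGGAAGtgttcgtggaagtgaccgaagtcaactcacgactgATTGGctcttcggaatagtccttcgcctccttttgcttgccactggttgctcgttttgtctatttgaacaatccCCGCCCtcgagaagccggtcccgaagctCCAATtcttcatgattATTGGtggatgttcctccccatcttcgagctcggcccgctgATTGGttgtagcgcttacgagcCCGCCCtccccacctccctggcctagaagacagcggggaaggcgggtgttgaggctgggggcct
Tsc1: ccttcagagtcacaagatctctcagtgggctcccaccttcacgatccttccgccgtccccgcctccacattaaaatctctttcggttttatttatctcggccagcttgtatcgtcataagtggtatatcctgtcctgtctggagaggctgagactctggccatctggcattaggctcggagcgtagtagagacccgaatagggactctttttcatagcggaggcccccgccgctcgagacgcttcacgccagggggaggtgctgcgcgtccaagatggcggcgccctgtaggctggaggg
Tsc2: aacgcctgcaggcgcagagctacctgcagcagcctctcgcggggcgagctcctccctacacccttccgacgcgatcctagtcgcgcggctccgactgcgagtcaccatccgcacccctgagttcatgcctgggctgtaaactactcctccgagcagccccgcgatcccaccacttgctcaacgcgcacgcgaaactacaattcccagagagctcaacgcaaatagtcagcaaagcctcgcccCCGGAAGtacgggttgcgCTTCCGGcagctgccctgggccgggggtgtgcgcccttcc
The Mtor window held 4 CCAAT boxes, 2 Sp1-type boxes and 1 ETS motif. The Tsc2 window held 2 ETS motifs, close to its start site. The Tsc1 window held none of the 6 motifs, so no motif searched was common to the 3 windows. Of all 32851 mouse promoters of that length, 37.4% held a CCAAT box, 35.7% the Sp1-type motif, 8.86% the ETS motif, 7.15% the E-box, 3.65% the forkhead motif and 2.71% the NRF1 motif. Promoters were listed for 8 of the 10 members, and for Deptor and Eif4ebp1 none was printed.

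The transcript levels of the members were compared with each other per kilobase of exon, as means over the 20 muscles. Deptor, the inhibitor inside the complex, was the most abundant with 19.3 ± 3.2 CPM per kb (mean ± SD, n = 20). Next came Eif4ebp1 with 17.2 ± 5.2 and Tsc2 with 13.1 ± 1.66 CPM per kb. Then followed Tsc1 (8.85 ± 1.04), Mtor (8.04 ± 1.31), Pdpk1 (7.91 ± 0.938), Rheb (6.68 ± 0.763), Sesn1 (6.14 ± 2.07), Rptor (5.69 ± 1.12) and Rps6kb1 (4.98 ± 1.13 CPM per kb). Tsc2 and Tsc1 were the only neighbours in this order whose mean ± SD did not overlap; for all other neighbours these ranges overlapped. The inhibitors Deptor and Tsc2 stood higher per length than the kinase and Rptor, by more than these spreads between muscles. Each length counts all annotated exon bases of a gene over all its transcripts. The order therefore depends on that annotation, and the spreads do not cover this. Parts of the exons of 4 members overlap a gene on the other strand: 7.2% of the Tsc2 exon bases (with Pkd1), 3.41% of Deptor (Gm9920), 1.79% of Rps6kb1 (Rnft1) and 0.624% of Rptor (Rptoros). The libraries keep the strand, but how strand was used in counting is not given in the sources used here.

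**Figure D1:**
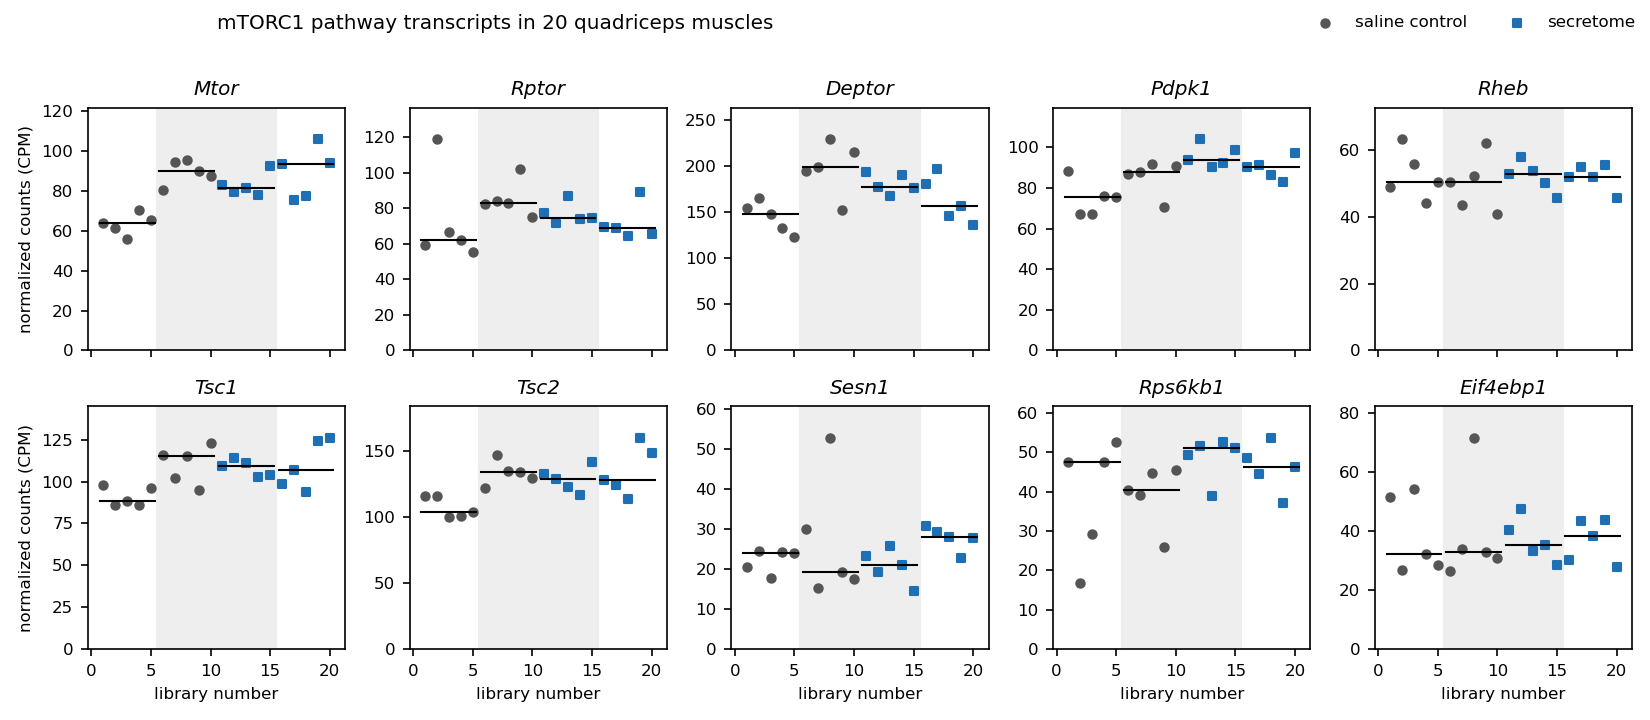
Normalized counts (CPM, vertical axes from 0) of the 10 members in each of the 20 muscles, by library number (horizontal axes). Grey circles are saline controls and blue squares secretome-treated muscles; black lines are medians of 5 muscles, and the shaded band marks libraries 6 to 15, the range with both treatments. Mtor is the member whose 5 values in libraries 1 to 5 (56.1 to 70.4 CPM) all lie below those of the other 15 libraries (75.7 to 106 CPM). How many other genes share this pattern was not counted.

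At 3 h after injection, the control and secretome-treated groups overlapped for all 10 members. How many of all genes tested overlap in this way was not counted. Over all muscles 0 of the 10 passed a 5% false discovery rate in the quasi-likelihood test of edgeR, beside 0.00691% of all genes tested (1 gene, Plxnb2), and 0 passed in DESeq2 or limma-voom. At an unadjusted p under 0.05 there was 1 of 10, Pdpk1, against 15.7% of all genes tested. The log2 fold change was above 0 for 7 of the 10, and its median was 0.07, beside -0.03 over all genes. The p-values describe the spread between separate mice. The count of 1 became 2, with Rps6kb1, without control replicate 5, without a filter on low counts and in limma-voom, and 0 with the 3 library ranges as a term.

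Mtor (ENSMUSG00000028991) encodes the kinase. Its level was 76.5 ± 14.9 CPM in control muscle (lowest 56.1, median 75.4, highest 95.5) and 86.1 ± 9.95 CPM in secretome-treated muscle (lowest 75.7, median 82.2, highest 106, mean ± SD, n = 10 each). All 10 secretome-treated muscles were above the control median, while control replicates 7 to 10 were above the secretome median. Its log2 fold change was 0.17 (standard error 0.103, 95% interval -0.04 to 0.38, adjusted p = 0.422). Rptor (ENSMUSG00000025583), the scaffold that recruits substrates and defines the complex, had 78.9 ± 19.8 CPM in control muscle (lowest 55.4, median 78.8, highest 119) and 74.3 ± 8.46 CPM in secretome-treated muscle (lowest 64.3, median 73.0, highest 89.5). The highest Rptor value, 119 CPM, was that of control replicate 2, and 8 of the 10 secretome-treated muscles were below the control median. The log2 fold change of Rptor was -0.09 (95% interval -0.33 to 0.16, adjusted p = 0.746), and it was -0.00339 without control replicate 2. Deptor (ENSMUSG00000022419), an inhibitory subunit, had 171 ± 35.8 CPM in control (lowest 123, median 160, highest 229) and 172 ± 20.2 CPM in secretome-treated muscle (lowest 136, median 177, highest 197). The 2 group means were nearly the same, and the log2 fold change of 0.01 had a 95% interval of -0.22 to 0.23 (adjusted p = 0.986).

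Pdpk1 (ENSMUSG00000024122) encodes the kinase that activates AKT and S6 kinase, and of the 10 members it had the smallest p over all muscles. Its level was 80.2 ± 9.86 CPM in control muscle (lowest 67.2, median 81.4, highest 91.8) and 92.8 ± 5.94 CPM in secretome-treated muscle (lowest 82.9, median 92.0, highest 104). Every secretome-treated muscle was above the control median, and the groups overlapped between 82.9 and 91.8 CPM. Its log2 fold change was 0.21 (standard error 0.075, 95% interval 0.05 to 0.36, unadjusted p = 0.0104, adjusted p = 0.205), so it did not pass the false discovery rate. As each muscle was left out it stayed between 0.183 and 0.232, with adjusted p from 0.14 to 0.378. Rheb (ENSMUSG00000028945), the GTPase that switches the kinase on, had 51.2 ± 7.54 CPM in control (lowest 40.8, median 50.5, highest 63.2) and 52.0 ± 3.99 CPM in secretome-treated muscle (lowest 45.5, median 52.3, highest 57.8). All secretome-treated values of Rheb lay inside the range of the controls, and its log2 fold change was 0.02 (95% interval -0.15 to 0.19, adjusted p = 0.912).

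The upstream inhibitors Tsc1 (ENSMUSG00000026812) and Tsc2 (ENSMUSG00000002496) encode hamartin and tuberin, the subunits of the complex that turns RHEB off. Tsc1 had 100 ± 13.2 CPM in control muscle (lowest 85.8, median 96.9, highest 123) and 109 ± 10.3 CPM in secretome-treated muscle (lowest 93.7, median 108, highest 126). Tsc2 had 121 ± 16 CPM in control muscle (lowest 100, median 119, highest 147) and 132 ± 14.5 CPM in secretome-treated muscle (lowest 114, median 129, highest 160). Both subunits were above the control median in most secretome-treated muscles, Tsc1 in 9 and Tsc2 in 8 of 10. Within libraries 6 to 15, against the control median of that range, it was 0 of 5 for Tsc1 and 1 of 5 for Tsc2. Their log2 fold changes were 0.12 (95% interval -0.05 to 0.29, adjusted p = 0.48) and 0.13 (95% interval -0.05 to 0.31, adjusted p = 0.451). Sesn1 (ENSMUSG00000038332), a stress-induced sestrin that senses amino acids, had 24.6 ± 10.8 CPM in control (lowest 15.2, median 22.2, highest 52.8) and 24.3 ± 5.06 CPM in secretome-treated muscle (lowest 14.6, median 24.5, highest 30.9). The value of 52.8 CPM was that of control replicate 8, and the other 9 controls were at 30.0 CPM or less. The log2 fold change of Sesn1 was -0.02 (95% interval -0.40 to 0.36, adjusted p = 0.972), and it was 0.18 without that muscle, a change of direction.

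The substrates were Rps6kb1 (ENSMUSG00000020516), which encodes S6 kinase 1, and Eif4ebp1 (ENSMUSG00000031490), which encodes 4E-BP1. Rps6kb1 had 38.9 ± 11.4 CPM in control (lowest 16.8, median 42.6, highest 52.6) and 47.3 ± 5.67 CPM in secretome-treated muscle (lowest 37.1, median 48.9, highest 53.6). Its lowest values were those of control replicate 2 (16.8), control replicate 9 (25.8) and control replicate 3 (29.2 CPM), and 8 of 10 secretome-treated muscles were above the control median. Its log2 fold change was 0.28 (standard error 0.15, 95% interval -0.03 to 0.59, unadjusted p = 0.0721, adjusted p = 0.362). Without control replicate 2 it was 0.194. Eif4ebp1 had 38.9 ± 15 CPM in control (lowest 26.4, median 32.6, highest 71.5) and 36.8 ± 6.84 CPM in secretome-treated muscle (lowest 27.9, median 36.8, highest 47.3). As for Sesn1, the highest value was that of control replicate 8, and the log2 fold change of -0.08 (95% interval -0.43 to 0.27, adjusted p = 0.846) was 0.06 without it. Over all muscles the coefficient of variation of the 10 members was 12.3% to 44.1% in control and 6.41% to 20.8% in secretome-treated muscle. This order did not hold within library ranges for every member: that of Mtor was 6.77% for the controls and 6.83% for the secretome-treated muscles of libraries 6 to 15, and 8.3% in libraries 1 to 5 against 14.3% in libraries 16 to 20.

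In libraries 6 to 15, where both treatments were present, the log2 fold changes of Mtor, Tsc1 and Tsc2 lay slightly below 0. In this range 0 of 10 members passed the false discovery rate, as did 0% of all genes in edgeR, while DESeq2 called 37 genes, none of them a member. At an unadjusted p under 0.05 there was 1 of 10, Rps6kb1, against 9.9% (1432) of all genes. The log2 fold change was above 0 for 3 of 10 members (Pdpk1, Rheb and Rps6kb1), with a median of -0.06, beside -0.01 over all genes. Mtor had 80.4, 94.5, 95.5, 90.0 and 87.8 CPM in the 5 control muscles and 82.9, 79.5, 81.5, 77.9 and 92.4 CPM in the 5 secretome-treated muscles. Only secretome replicate 5 was above the control median, and the log2 fold change was -0.10 (95% interval -0.29 to 0.09, adjusted p = 0.689). Tsc1 and Tsc2 had log2 fold changes of -0.01 (95% interval -0.22 to 0.19) and -0.04 (95% interval -0.23 to 0.16).

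Rps6kb1 and Pdpk1 had a positive difference in libraries 6 to 15 too. Rps6kb1 had 40.5, 39.2, 44.6, 25.8 and 45.6 CPM in control muscle and 49.3, 51.5, 38.9, 52.7 and 51.0 CPM in secretome-treated muscle. All but secretome replicate 3 were above every control of this range, and the log2 fold change was 0.33 (95% interval 0.01 to 0.64, unadjusted p = 0.0427, adjusted p = 0.498). It was 0.208 without control replicate 9, and the unadjusted p lay between 0.0186 and 0.09 as each of the 10 muscles was left out. Pdpk1 had 86.7, 87.8, 91.8, 70.6 and 90.7 CPM in control muscle and 94.0, 104, 90.4, 92.5 and 98.6 CPM in secretome-treated muscle. All 5 secretome-treated muscles were above the control median of Pdpk1, and 4 of them were above every control, with a log2 fold change of 0.18 (95% interval -0.03 to 0.38, unadjusted p = 0.09, adjusted p = 0.55). For Sesn1 the log2 fold change was -0.36 with a 95% interval of -1.08 to 0.35, the widest of the 10, and without control replicate 8 it was 0.03.

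**Figure D2:**
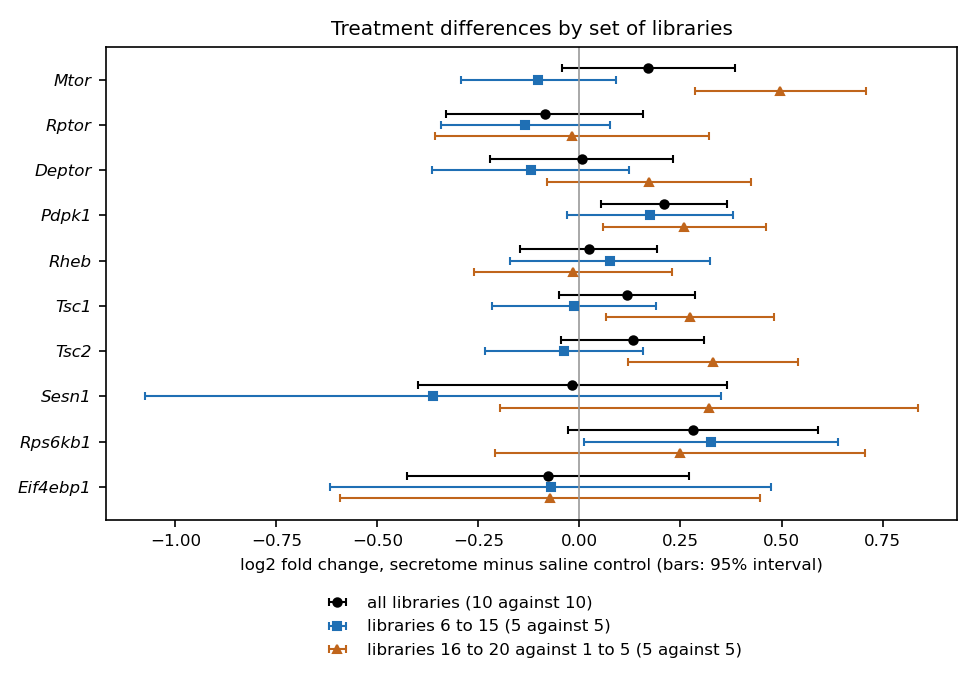
Log2 fold change of secretome-treated over control muscle with its 95% interval (horizontal axis) for each member, over all libraries (black circles), within libraries 6 to 15 (blue squares) and for libraries 16 to 20 against 1 to 5 (orange triangles). Mtor, Tsc1 and Tsc2 lie above 0 in the last comparison (0.50, 0.27 and 0.33) and just below it within libraries 6 to 15 (-0.10, -0.01 and -0.04), while Pdpk1 and Rps6kb1 lie above 0 in all 3.

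Between secretome-treated libraries 16 to 20 and control libraries 1 to 5, Mtor was higher in treated muscle. The 5 controls had 63.7, 61.2, 56.1, 70.4 and 65.3 CPM and the 5 secretome-treated muscles 93.6, 75.7, 77.3, 106 and 94.2 CPM, with no overlap. The share of all genes without overlap here was not counted. The log2 fold change was 0.50 (95% interval 0.29 to 0.71, edgeR adjusted p = 0.0171), and Mtor was the 1 of 10 members past the false discovery rate, against 3.68% of all genes. At an unadjusted p under 0.05 there were 4 of 10, Mtor, Pdpk1 (0.26), Tsc1 (0.27) and Tsc2 (0.33, adjusted p = 0.0688), against 21.2% of all genes. In DESeq2 all 4 passed the false discovery rate in this comparison. The call on Mtor in edgeR was lost without control replicate 3 (adjusted p = 0.0528), secretome replicate 6 (0.0514) or secretome replicate 9 (0.052). Since treatment and library range go together here, the 2 cannot be told apart.

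The treatment difference of Mtor in libraries 6 to 15 minus that between the other libraries was -0.61 on the log2 scale (95% interval -0.91 to -0.31, unadjusted p = 0.00035, edgeR adjusted p = 0.145). This test of the difference did not pass the false discovery rate in edgeR, and it passed in DESeq2 (-0.63, adjusted p = 0.00693). As each muscle was left out, the edgeR value stayed between -0.665 and -0.542 with adjusted p from 0.0876 to 0.263. Tsc2 (-0.38, 95% interval -0.68 to -0.09, unadjusted p = 0.0139, adjusted p = 0.303) and Tsc1 (-0.30, 95% interval -0.59 to -0.0035, unadjusted p = 0.0476, adjusted p = 0.44) had differences of the same sign. At an unadjusted p under 0.05 these were 3 of 10 members, against 11.1% of all genes, and past the false discovery rate there were 0 of 10, against 0.0553% (8 genes) of all. For Pdpk1 the difference was -0.10 (95% interval -0.38 to 0.19, adjusted p = 0.848) and for Rps6kb1 it was 0.07 (95% interval -0.58 to 0.71, adjusted p = 0.962).

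The 5 controls of libraries 1 to 5 had the lowest mean levels of Mtor, Tsc1, Tsc2, Deptor and Pdpk1, and for Rps6kb1 they were level with the other controls (38.7 and 39.1 CPM). Mtor was at 63.3 ± 5.26 CPM there (mean ± SD, n = 5), at 89.7 ± 6.07 CPM in the controls of libraries 6 to 10, at 82.8 ± 5.66 CPM in the secretome-treated libraries 11 to 15 and at 89.4 ± 12.8 CPM in libraries 16 to 20. The same controls had 107 ± 7.93 CPM of Tsc2 and 90.8 ± 5.74 CPM of Tsc1, while the controls of libraries 6 to 10 had 134 ± 9.13 and 110 ± 11.3 CPM. Deptor also stood lower in them, at 145 ± 16.8 CPM against 198 ± 29.1 CPM in the other controls, and Pdpk1 was at 75.0 ± 8.68 CPM in them, at 85.5 ± 8.58 CPM in the other controls and at 95.8 ± 5.26 and 89.7 ± 5.37 CPM in secretome-treated libraries 11 to 15 and 16 to 20. The muscle fibre and fibroblast marker lists differed along the same line, with some overlap between the ranges. The summed level of 8 muscle fibre markers, such as Acta1 and Ckm, was 86600 to 115000 CPM in libraries 1 to 5 and 109000 to 164000 CPM in libraries 6 to 20. The sum of 5 fibroblast and fibro-adipogenic progenitor markers, such as Pdgfra and Dcn, was 430 to 756 CPM and 158 to 479 CPM. For the other lists the ranges overlapped too, as for the endothelial markers (100 to 155 and 105 to 188 CPM). In bulk muscle, fewer cells of a type and less RNA per cell cannot be told apart, and the part of these markers in the member values was not tested. With Ttn left out before scaling, the log2 fold change of Mtor was 0.168 over all muscles. For libraries 16 to 20 against 1 to 5 it was 0.489 (edgeR adjusted p = 0.0208), and its difference between ranges was -0.601. These values are close to those with Ttn kept in. The scaling already sets aside genes of extreme level, so this removal could change little, and the part of the Ttn share was not tested.

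Between the treatments over all muscles, at an unadjusted p under 0.05, 1 of 8 muscle fibre, 2 of 5 macrophage and 1 of 4 tested satellite cell markers were lower in secretome-treated muscle, and 0 of the tested neutrophil, endothelial, fibroblast, adipocyte, Schwann cell and red blood cell markers passed in either direction. Of all genes tested 15.7% passed, with 1333 lower and 944 higher. The 5 macrophage markers summed to 29.0 to 88.4 CPM in control and 22.7 to 75.8 CPM in secretome-treated muscle. The 5 T and B cell markers summed to 0.331 to 7.06 CPM (median 1.57) in control and 0 to 0.86 CPM (median 0.347) in secretome-treated muscle, and none of them had enough counts to be tested. Muscle fibre transcripts stood far above those of any other list in every muscle, as the tissue label says. The muscle fibre sum within libraries 6 to 15 was 113000 to 148000 CPM in control and 119000 to 134000 CPM in secretome-treated muscle. The macrophage sum there was 29.0 to 65.3 CPM (median 41.9) in control and 22.7 to 35.9 CPM (median 26.8) in secretome-treated muscle. The endothelial sum there was 105 to 188 CPM (median 179) in control and 119 to 169 CPM (median 130) in secretome-treated muscle, inside the control range.

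Beyond the 10 members, 70 other genes of the pathway were listed in 6 groups by role, and all 70 were tested. Over all muscles 0 of 70 passed the false discovery rate in edgeR, DESeq2 or limma-voom, and 7 were higher and 3 lower at an unadjusted p under 0.05, 10 in all, which is a share near the 15.7% of all genes. Of the 70, 41 had a log2 fold change above 0, with a median of 0.05, and within libraries 6 to 15 it was 31, with a median of -0.03. In that range 3 of the 70 were higher and 2 lower at an unadjusted p under 0.05, 5 in all beside 9.9% of all genes, with 0 calls after adjustment in edgeR or DESeq2. Between libraries 16 to 20 and 1 to 5, 21 of the 70 had an unadjusted p under 0.05 in edgeR, against 21.2% of all genes. Past the false discovery rate there were 2, against 3.68% of all genes. Treatment and library range go together in that comparison. All lists were written with earlier results of these data known.

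Among the growth factor inputs, 2 of 10 genes had an unadjusted p under 0.05 over all muscles, beside 15.7% of all genes, and both were higher. Of these, Pik3ca, a catalytic subunit of PI3 kinase, had 73.3 ± 12.5 CPM in control and 88.0 ± 10.2 CPM in secretome-treated muscle (log2 fold change 0.27, adjusted p = 0.211), and 0.05 within libraries 6 to 15.

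Energy and stress inputs had 2 of 9 genes at an unadjusted p under 0.05, beside 15.7% of all genes. Both encode subunits of AMP-activated kinase, which restrains mTORC1 when energy is low. The catalytic Prkaa2 had 375 ± 97.3 CPM in control and 475 ± 50.4 CPM in secretome-treated muscle (log2 fold change 0.34, adjusted p = 0.232), and the regulatory Prkab2 had 318 ± 71.6 and 388 ± 50.5 CPM (0.28, adjusted p = 0.256). In libraries 6 to 15 alone they had log2 fold changes of 0.24 (unadjusted p = 0.138) and 0.12 (unadjusted p = 0.365). These 2 subunits are the forms typical of skeletal muscle. Of the other listed subunits, Prkab1 was at -0.18 over all muscles and -0.24 within libraries 6 to 15 (unadjusted p of 0.0784 and 0.0969), Prkag1 at -0.07 and -0.20 (0.472 and 0.0469), and Prkaa1 at 0.11 and 0.20 (0.382 and 0.244). Prkag1 was the 1 gene of this list with an unadjusted p under 0.05 within libraries 6 to 15.

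Of 17 genes of amino acid sensing, the Rag GTPases and the Ragulator, 1 was higher and 1 lower at an unadjusted p under 0.05. Over all genes the share in either direction was 15.7%. Rragd, a Rag GTPase that tethers the complex to the lysosome, had 279 ± 31.8 CPM in control and 331 ± 40.7 CPM in secretome-treated muscle (log2 fold change 0.25, adjusted p = 0.195), the smallest p of the 70 genes. Lamtor4, a subunit of the Ragulator scaffold, had 23 ± 11.3 and 15.8 ± 2.89 CPM (-0.54, adjusted p = 0.205), and without control replicate 2, the highest muscle with 51.3 CPM, its log2 fold change was -0.328. Both kept their sign within libraries 6 to 15 (0.18 and -0.34, unadjusted p of 0.0862 and 0.0764). Among 11 GATOR genes, Mios, of the activating GATOR2 complex, was the 1 gene with an unadjusted p under 0.05 (19.7 ± 4.45 CPM in control and 24.3 ± 1.73 CPM in secretome-treated muscle, log2 fold change 0.30, adjusted p = 0.237), and within libraries 6 to 15 its log2 fold change was 0.16 (unadjusted p = 0.165).

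Of 15 substrates and outputs, 1 was higher and 2 lower at an unadjusted p under 0.05, beside 15.7% of all genes. Eif4ebp2, a second 4E-BP that shares its target with Eif4ebp1, had 309 ± 40.3 CPM in control and 361 ± 52.5 CPM in secretome-treated muscle (log2 fold change 0.22, adjusted p = 0.271), and 0.08 within libraries 6 to 15 (unadjusted p = 0.42). Rps6, the ribosomal protein that S6 kinase phosphorylates, had 112 ± 24.0 and 90.1 ± 11.4 CPM (-0.31, adjusted p = 0.205), and -0.24 within libraries 6 to 15 (unadjusted p = 0.113). Reads of Rps6 can be shared with its pseudogenes, so its level is uncertain. The other gene below 0 was Rps6kb2, which encodes S6 kinase 2, with a log2 fold change of -0.20 (unadjusted p = 0.0313, adjusted p = 0.274), opposite in sign to Rps6kb1. Of the 8 mTOR complex partners, 0 had an unadjusted p under 0.05 over all muscles. The 2 with the smallest p were Prr5 (-0.37, adjusted p = 0.389) and Prr5l (-0.61, adjusted p = 0.486), partners of mTORC2, at 1.73 ± 0.576 and 0.883 ± 0.741 CPM over all muscles. Prr5l was -0.252 without control replicate 3, the highest control and the one with the most neutrophil marker counts (96.1 CPM, the other controls 14.2 CPM at most), and -1.05 within libraries 6 to 15 (unadjusted p = 0.0108), where it was 0.985 ± 0.182 CPM in control and 0.469 ± 0.23 CPM in secretome-treated muscle.

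**Figure D3:**
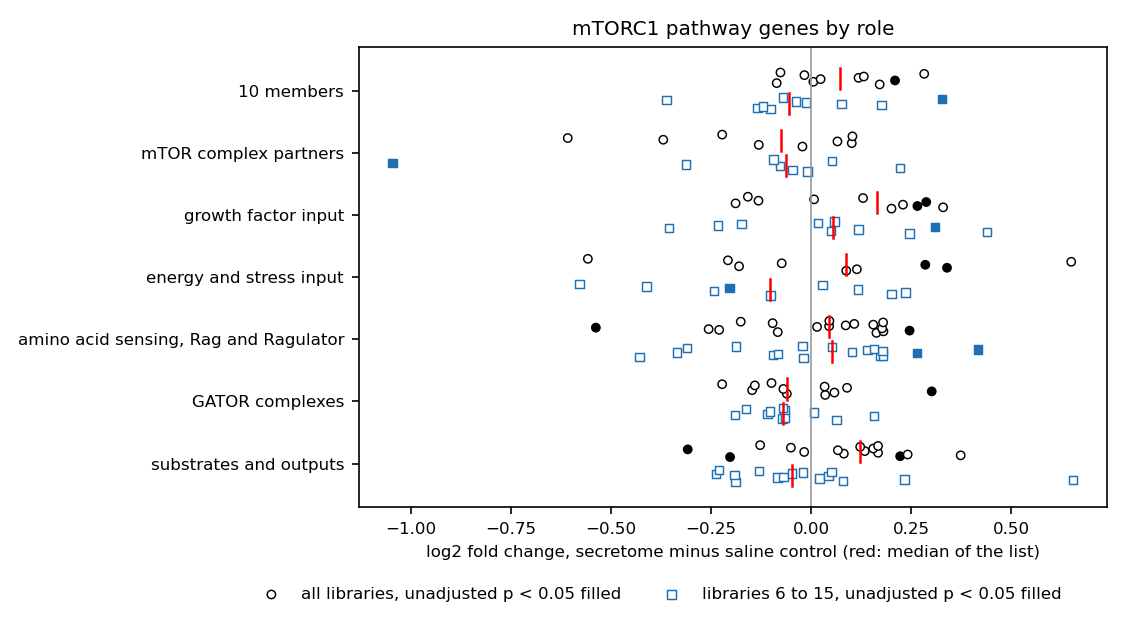
Log2 fold change of secretome-treated over control muscle (horizontal axis) for the 10 members and the 70 other pathway genes, grouped by role (rows). Black circles are all libraries, blue squares libraries 6 to 15, filled symbols have an unadjusted p under 0.05, and red bars are medians of each group of genes; 10 of the 70 genes are filled over all libraries and 5 within libraries 6 to 15.

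The test of the difference between library ranges gave 7 of the 70 genes at an unadjusted p under 0.05, a share near the 11.1% of all genes, and 0 past the false discovery rate, where DESeq2 called 2. In all 7 the treatment difference was lower within libraries 6 to 15. Over all genes, 809 were higher and 797 lower by that test. Named after their values were seen, these 7 were Mapkap1 (-0.31), Pik3ca (-0.46), Akt2 (-0.41), Ddit4 (-1.99), Eif4g1 (-0.55), Eef2 (-0.57) and Lpin1 (-0.61, log2 scale). Since these genes were picked by that difference, their values in the 2 comparisons behind it are a description. For Ddit4, an mTORC1 inhibitor induced by stress, the log2 fold change was 1.57 in secretome-treated libraries 16 to 20 against control libraries 1 to 5. In libraries 6 to 15, Ddit4 had a log2 fold change of -0.41 (unadjusted p = 0.444).

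Ratios of 2 transcripts within a muscle need no scaling between libraries, and 4 were compared, with p-values adjusted over the 4. The log2 ratio of Eif4ebp1 to Eif4e, the cap-binding protein that 4E-BP1 blocks, averaged -0.445 ± 0.498 over control and -0.742 ± 0.327 over secretome-treated mice (n = 10 each). The difference of -0.297 did not exceed the variation among muscles (100000 resamples in a two-sided permutation test, p = 0.133, adjusted p = 0.343), although 9 of 10 secretome-treated muscles were below the control median. In libraries 6 to 15 it was -0.256, with 2 of 5 secretome-treated muscles below the control median of that range (two-sided exact permutation test, p = 0.413, adjusted p = 0.825). Rptor to Rictor, the defining subunits of mTORC1 and mTORC2, had log2 ratios of 0.311 ± 0.729 and 0.114 ± 0.300 (difference -0.198, permutation p = 0.45, adjusted p = 0.6), and a difference of -0.377 within libraries 6 to 15 (exact permutation p = 0.143, adjusted p = 0.571). Control replicates 2 (1.74) and 9 (1.27) had the highest values of this ratio, the 2 muscles in which Rps6kb1 was lowest, and without control replicate 2 the difference over all muscles was -0.0395.

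The ratio of the inhibitor to the kinase, Deptor to Mtor, had a log2 value of 0.754 to 1.43 (median 1.27) in control and 0.534 to 1.38 (median 0.991) in secretome-treated muscle (difference of the means -0.164, permutation p = 0.171, adjusted p = 0.343). Within libraries 6 to 15 the difference was -0.00609 (exact permutation p = 0.976). Tsc1 to Tsc2, the subunits of a single complex, was the least variable ratio, with -0.262 ± 0.168 and -0.274 ± 0.103 (difference -0.0119, permutation p = 0.847, adjusted p = 0.847). Within libraries 6 to 15 the sign of that difference turned (0.033, exact permutation p = 0.817). Of the 4 ratios, 0 passed after adjustment in either comparison.

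**Figure D4:**
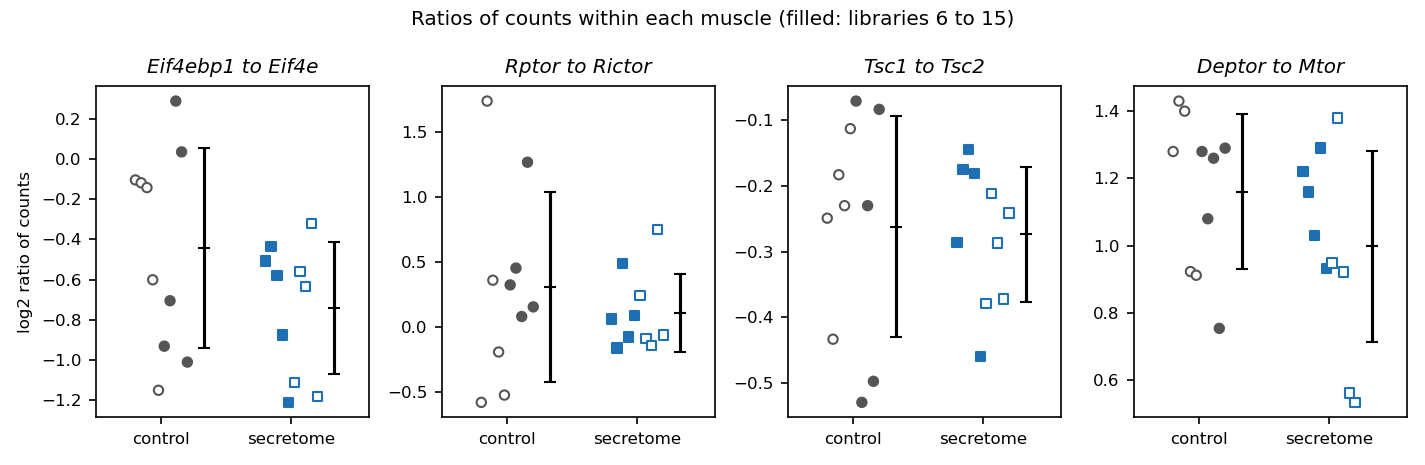
Log2 ratio of the counts of 2 genes within each muscle (vertical axes, a separate scale per panel) for 10 control (grey circles) and 10 secretome-treated muscles (blue squares). Filled symbols are libraries 6 to 15, and black bars are the mean ± SD of each group; the groups overlap in all 4 panels, and the differences of the means run from -0.297 (Eif4ebp1 to Eif4e) to -0.0119 (Tsc1 to Tsc2).

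The genes whose levels ran most like Mtor over the 20 muscles, among 13171 genes with a mean of at least 1 CPM, were Mprip (Pearson r = 0.919), Ppp1r12b (0.914) and Ubr4 (0.903). For Pdpk1 they were March6 (0.926), Ppp3cb (0.924) and Zbtb37 (0.92). These correlations of log2 CPM are a description over muscles that share the library ranges and treatments, and carry no test.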

How the data were processed

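Bulk RNA of 20 mouse quadriceps muscles (10 control, 10 secretome, grouped by their titles) was sequenced by the authors as stranded, ribosomal RNA-depleted paired-end libraries. The deposited values are unnormalized counts per gene in 1 column per muscle, and all columns were matched to samples. The submitters' processing notes name cutadapt 1.16, STAR 2.7.9a, featureCounts 1.6.3, DESeq2 1.34.0 and build GRCm39 (mm39); the annotation release is not given in the sources used here. Gene symbols came from GENCODE names (52083 of 55416 IDs matched, 14415 of the 14471 tested).

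Genes were filtered with filterByExpr, scaled with TMM and tested with the robust quasi-likelihood test of edgeR 4.0.16 in R 4.3.3, on a design of treatment alone, with p adjusted by Benjamini-Hochberg over all genes. Libraries 6 to 15 were fitted alone with the same genes. A model of treatment, library set and their interaction gave the difference between the sets and, as its treatment term, the comparison of libraries 16 to 20 with 1 to 5. Standard errors are the fold change over the root of F. Ratios were tested by permutation with 100000 resamples, or exactly with 5 against 5 (Python 3.11.15, scipy 1.17.1). Promoters came from RefSeq on GRCm38.p6, and exon lengths and overlaps from GENCODE on GRCm38, not from the build of the counts. CPM values were computed from the scaled counts, and correlations used log2 CPM with a prior count of 2. Depth limits the precision of each count, and the intervals come from the fits.

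Named genes were the 10 members, the 2 genes with the smallest p in each of 6 pathway lists, the 3 genes most correlated with Mtor and with the member of smallest p, and the genes of the 4 ratios. Some genes that this rule names are not reported here. The members, lists and library ranges were chosen with earlier results of these data known. Alternatives were DESeq2 1.42.0, RLE scaling, no filter, limma 3.58.1 (voom with quality weights), a replicate block, the library ranges as a term and each muscle left out. Added after the data were seen were the removal of Ttn and all alternatives of the comparison of libraries 16 to 20 with 1 to 5, and DESeq2, the removal of Ttn and each muscle left out for the difference between sets. The fits were also run on counts simulated without the library range differences seen here. That run cannot show how such differences affect the fits.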

Additional observations from a re-analysis of the deposited data

Results flagged for a closer look

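Of 52 groups of 10 muscles examined for 1 value far from the others, 3 had one, where chance gives about 2.6. On the log2 CPM scale, Prr5l was 1.73 in control replicate 3, the highest of the controls, Rragd was 8.76 in secretome replicate 10, the highest of the secretome-treated muscles, and Mios was 4.34 in secretome replicate 3, the lowest of them. Control replicate 3 also had the highest control sums of neutrophil (96.1 CPM, the other controls 14.2 CPM at most), macrophage (88.4 CPM) and red blood cell markers (1370 CPM). In secretome-treated muscle, Prr5l was highest in replicates 8 (1.28) and 7 (0.46), which had the highest neutrophil sums of that group (106 and 57.1 CPM). The other controls did not follow this order. Control replicate 4 had the next highest control value of Prr5l (0.417) with a neutrophil sum of 2.28 CPM. Control replicate 10 had the next highest control sum (14.2 CPM) with Prr5l at -0.21. The part of these cells in the Prr5l values was not tested.

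For 3 members the treatment difference within libraries 6 to 15 differed from that between libraries 16 to 20 and 1 to 5 at an unadjusted p under 0.05 in edgeR. The differences were -0.611 for Mtor, -0.298 for Tsc1 and -0.382 for Tsc2 (log2 scale), and none passed the 5% false discovery rate in edgeR.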

How the results depend on the processing

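Over all muscles, the 1 gene past the false discovery rate became 216 in DESeq2, 3 in limma-voom and 0 with the library ranges as a term, and 0 (without control replicate 6) to 13 (without control replicate 5) as each muscle was left out. The 1 member at an unadjusted p under 0.05 became 2 with no filter and in limma-voom, 0 with the library ranges as a term, and 1 to 2 as each muscle was left out. In the replicate block fit, with the shared replicate number as a term, 0 genes passed and 2 members had an unadjusted p under 0.05. Same-numbered muscles correlated at -0.24 to 0.221 in their deviations from the group means, over 0.1 in 2 of 10 pairs. Each pair joins muscles of different library ranges, so these correlations cannot show whether same-numbered muscles were matched. Within libraries 6 to 15, DESeq2 called 37 genes. For the difference between library sets the 8 genes became 186 in DESeq2 and 1 (without control replicate 4) to 9. In that test the 3 members at an unadjusted p under 0.05 became 4 in DESeq2 and 2 without Ttn. With each muscle left out they were 2 (such as without control replicate 3) to 5 (without control replicate 9). For libraries 16 to 20 against 1 to 5, the 532 genes became 1148 in DESeq2 and 72 (without secretome replicate 6) to 823 (without control replicate 5).

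Of 1074 alternative values of single genes, 1005 kept their direction and their side of the threshold, 5 came to pass it, 3 no longer passed and 61 changed sign. Over all muscles, Sesn1 turned to 0.00199 with no filter, 0.0235 in limma-voom and 0.0422 in the replicate block, and in limma-voom Deptor was -0.0059 and Eif4ebp1 0.00351. With the library ranges as a term, Mtor was -0.114, Deptor -0.132, Tsc1 -0.0241 and Tsc2 -0.0515. For libraries 16 to 20 against 1 to 5, Rptor was 0.00781 and Rheb 0.0111 in DESeq2. The Tsc1 to Tsc2 ratio was 0.033 within libraries 6 to 15 and -0.0416 to 0.00933 as each muscle was left out.

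With each muscle left out, the values that changed sign were, over all muscles, Deptor (-0.0396 to 0.0597), Rheb (-0.00889 to 0.0612), Sesn1 (-0.0776 to 0.178) and Eif4ebp1 (-0.128 to 0.0634). Within libraries 6 to 15 they were Tsc1 (-0.0613 to 0.0323), Sesn1 (-0.513 to 0.0323) and Eif4ebp1 (-0.186 to 0.264). For the difference between sets they were Rps6kb1 (-0.0691 to 0.257) and Eif4ebp1 (-0.161 to 0.323), and for libraries 16 to 20 against 1 to 5 they were Rptor (-0.112 to 0.232), Rheb (-0.0722 to 0.0598) and Eif4ebp1 (-0.178 to 0.0798). The main values behind all of these were close to 0 next to their standard errors, apart from Sesn1 within libraries 6 to 15, and the cause of each turn was not tested. The members had at least 270 counts in every muscle, and no alternative depth was tried.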
